A study of Mus musculus with 3 samples.

Results

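The collagen genes were taken as all gene rows whose mouse symbol has the form Col, a number, the letter a and a number. This rule found 44 of 47593 gene rows, and each of the 44 was matched to 1 gene of the GENCODE M21 annotation of GRCm38. RNA was sequenced from wild-type (WT) mouse primary neurons of the hippocampus in 3 libraries of 1 group. The cells had been grown in Neurobasal with 10% B27 and 1% GlutaMAX at 37 °C and 5% CO2, and then received fresh medium holding B27 and penicillin-streptomycin, for 24 h according to the series design. The design also names neurons given apoE particles, which were not analysed here, so levels within 1 condition are described and no treatment effect is tested. The labels do not state whether separate cultures or animals gave the 3 libraries, so p-values and SDs measure only the spread between these samples, which may be technical.

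Collagens are secreted or membrane-bound proteins in which 3 alpha chains wind into a triple helix, and each alpha chain has its own gene. Fibrillar collagens build the fibrils of connective tissue, collagen IV forms the network of basement membranes, and FACIT collagens sit on fibrils or connect them to other matrix. In the brain, collagens are best known from the meninges and blood vessel walls, while some, among them the transmembrane collagen of Col25a1 and the FACIT collagen of Col19a1, are known to be made by neurons and to act at synapses.

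Levels are given as CPM, the reads of a gene per 1000000 reads of its library, from reads recovered from the authors' deposited log2 values. The recovered libraries held 18780582, 18683956 and 18885652 reads in replicates 1, 2 and 3. Where a gene had 0 reads, counting error alone allows up to about 0.16 CPM, the level of 3 reads. A gene was called detected at 1 CPM or more in each of the 3 libraries. All 8 neuron markers were detected, led by Mapt at 2032 ± 39.4, Map2 at 1528 ± 50.8 and Stmn2 at 1025 ± 11.9 CPM (SD, n = 3). So were 5 of 6 markers of Cajal-Retzius cells and interneurons, led by Gad1 at 340.3 ± 3.5, Reln at 308 ± 7.32 and Gad2 at 159 ± 1.65 CPM. The rest of that list was lower, with Calb2 at 34.6 ± 1.41 and Trp73 at 3.78 ± 0.695 CPM. Lhx5 was not detected, with 36 reads in all. The part of each of these kinds of cell was not tested. All 8 astrocyte markers were detected, led by Slc1a3 at 979.6 ± 9.44, Aldoc at 224 ± 9.34 and Slc1a2 at 223 ± 8.51 CPM. Of 6 markers of oligodendrocyte precursors 5 were detected, with a summed level of 252 to 271 CPM per library. They were led by Olig1 at 159 ± 9.64, Olig2 at 67.1 ± 0.139 and Pdgfra at 28.4 ± 0.457 CPM. Cspg4 at 6.28 ± 0.511 and Sox10 at 2.89 ± 0.564 CPM were lower, and Gpr17 was not detected, with 12 reads in all. Glial transcripts were therefore present beside those of the labelled cell type.

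Collagen transcripts were a small share of the RNA, and collagen IV led them. The 44 genes took 0.0303%, 0.0297% and 0.0297% of the reads in replicates 1, 2 and 3, a mean of 0.0299% ± 0.000358 (SD, n = 3). Of the 44 genes, 29 were detected, which is 65.9%. The same threshold was passed by 28.7% of all gene rows and by 58.3% of protein-coding rows. The median level per kilobase of annotated exon was 0.704 CPM per kb over the 29 detected collagen genes and 6.81 CPM per kb over 12575 detected protein-coding genes. Only Col4a2, at percentile 50.6 of those genes, lay above their median. The 9 collagen genes with a mean of 10 CPM or more held 67.5% of all collagen reads.

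**Figure D1:**
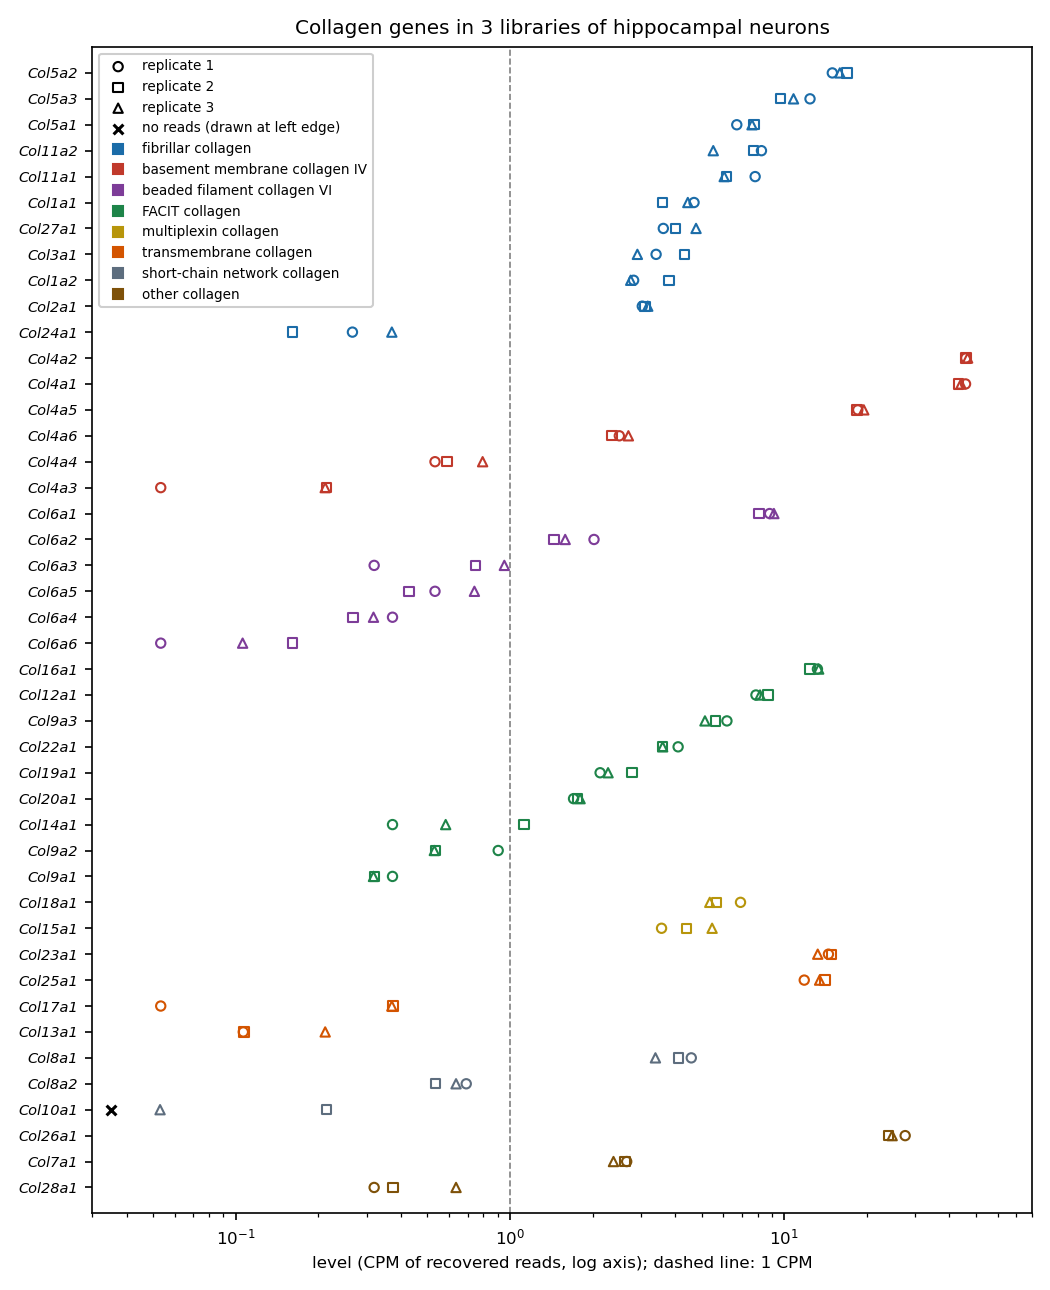
Level of each of the 44 collagen genes in CPM (log axis, not scaled to gene length), with 1 symbol per library, colours for the structural classes, a dashed line at 1 CPM and a cross for no reads. All symbols of 29 genes lie right of the line, with Col4a1 and Col4a2 furthest right at 44.3 and 46.2 CPM, and Col14a1 has symbols on both sides of it.

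Because RNA came from whole cultures, fewer cells of a type and less RNA per cell cannot be told apart in any of these levels. Markers of cells that make collagen outside the nervous tissue proper were present in part. Of 12 markers of fibroblasts and leptomeninges, 6 were detected, with a summed level of 137 to 143 CPM per library. Fn1 had 59.3 ± 1.49 CPM, Pdgfra, which is also on the list of oligodendrocyte precursors, had 28.4 ± 0.457 CPM and Dcn had 23.2 ± 0.918 CPM (SD, n = 3). Lum, Dpt, Aldh1a2, Slc6a13, Twist1 and Mgp had 20 reads or fewer each over the 3 libraries. Of 10 mural cell markers 5 were detected, led by Notch3 at 20.9 ± 1.58, Acta2 at 19.8 ± 1.02 and Pdgfrb at 9.21 ± 1.39 CPM. Their summed level was 65.2 to 68.5 CPM, which includes Cspg4, also on the list of oligodendrocyte precursors. Kcnj8 had no reads, and Abcc9, Myh11 and Rgs5 had 1, 10 and 31 reads in all. Of 8 endothelial markers only Kdr was detected, at 4.03 ± 0.206 CPM, followed by Esam at 1.03 ± 0.267 and Pecam1 at 0.745 ± 0.142 CPM. The summed level was 5.99 to 6.62 CPM, and Cldn5 had no reads. Of 6 microglial markers only C1qa was detected, at 1.79 ± 0.542 CPM, followed by Csf1r at 0.887 ± 0.323 and Cx3cr1 at 0.870 ± 0.190 CPM. The part of glial or any of these cells in the collagen levels was not tested.

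The basement membrane class held 6345 of 16846 collagen reads, a share of 37.7% ± 0.617 (SD, n = 3). Col4a1 and Col4a2 encode the chains of the common collagen IV network, in which 2 alpha 1 chains join 1 alpha 2 chain. Col4a1 lies at chr8:11198423-11312826 on the minus strand and Col4a2 at chr8:11312805-11449287 on the plus strand, so that they start head to head and their first exons share 22 bases. The shared stretch is shown because both genes begin in it. It is the plus strand of GRCm38.p6 from the RefSeq promoter table, chr8:11312805-11312826, with a GC box (GGGCGG, a site form bound by Sp1-type factors) in capitals.
Col4a1 and Col4a2 shared start: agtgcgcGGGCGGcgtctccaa

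Col4a2 had 862, 859 and 880 reads in replicates 1, 2 and 3, or 46.2 ± 0.383 CPM (SD, n = 3). Col4a1 had 860, 805 and 832 reads, or 44.3 ± 1.37 CPM. Both genes had nearly the same number of reads in replicate 1, and Col4a2 had more in each library. Per kilobase, Col4a1 stood at a log2 ratio of -0.23 ± 0.05 to Col4a2, or 1.17-fold lower, and Col4a1 was the lower gene in each library. With the longest annotated transcript in place of all exons as the length, the ratio was -0.10 ± 0.05. Together they held 30.3% of all collagen reads. In the authors' deposited log2 values they stood at 9.76 for Col4a2 and 9.70 for Col4a1.

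The other collagen IV genes also come in head-to-head pairs, and within the pair on the X chromosome the levels were far apart. Col4a5 and Col4a6 encode the alpha 5 and alpha 6 chains, which take part in the networks of kidney, skin and smooth muscle basement membranes. Col4a5 lies at chrX:141475385-141689234 on the plus strand and Col4a6 at chrX:141165403-141474076 on the minus strand, with 1308 bases between their starts. Bases close before each annotated start are shown because this unequal pair begins near them. Both are from the RefSeq promoter table of GRCm38.p6, each 5′ to 3′ on its gene's strand. They were cut to bases outside annotated exons and RefSeq gene spans, and they stop short of the starts given above. Matches on either strand to a CCAAT box (CCAAT), the GC box or a TATA box (TATAAA) are in capitals. The Col4a5 stretch holds 1 CCAAT and the Col4a6 stretch none of the motifs, while the full 300-base windows of both genes, which run into the first exons, also hold a GC box. The Col4a5 stretch is chrX:141475169-141475369, plus strand, and the Col4a6 stretch is chrX:141474096-141474326, minus strand.
Col4a5: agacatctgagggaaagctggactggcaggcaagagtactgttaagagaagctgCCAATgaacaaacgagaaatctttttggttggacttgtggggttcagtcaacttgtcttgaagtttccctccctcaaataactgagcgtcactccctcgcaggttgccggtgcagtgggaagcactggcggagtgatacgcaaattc
Col4a6: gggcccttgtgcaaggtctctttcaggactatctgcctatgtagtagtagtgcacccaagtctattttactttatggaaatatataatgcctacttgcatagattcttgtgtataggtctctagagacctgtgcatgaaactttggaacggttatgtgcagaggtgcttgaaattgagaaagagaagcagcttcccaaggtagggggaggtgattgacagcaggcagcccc

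Col4a5 had 348, 344 and 368 reads in replicates 1, 2 and 3, or 18.8 ± 0.589 CPM (SD, n = 3). Col4a6 had 47, 44 and 51 reads, or 2.52 ± 0.173 CPM. No library of Col4a6 came near the lowest library of Col4a5. Per kilobase the Col4a5 level was 8.87-fold higher, a log2 ratio of 3.15 ± 0.06. On the same scale Col4a1 stood 2.12-fold above Col4a5, with a log2 ratio of 1.08 ± 0.06. The pair on chromosome 1, Col4a3 and Col4a4, whose chains join alpha 5 in the kidney glomerulus, starts head to head with 71 bases between. Col4a3 had 9 reads in all and Col4a4 had 36, both below 1 CPM in every library, and no fold is drawn from them.

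The fibrillar class had 10 of 11 genes detected and 22.2% ± 0.498 of the collagen reads (SD, n = 3). Per kilobase its highest genes were Col5a2 at 1.66 and Col5a3 at 1.61 CPM per kb, chains of collagen V, which starts fibrils and limits their growth. Col1a1 at 0.646 and Col3a1 at 0.362 CPM per kb, chains of the collagens that make up most connective tissue, were lower in every library. Col5a2 had 281, 316 and 301 reads in replicates 1, 2 and 3, or 15.9 ± 0.975 CPM. Col5a3 had 233, 181 and 204 reads, or 10.97 ± 1.37 CPM, with its highest library where Col5a2 had its lowest. Col5a1 had 126, 145 and 144 reads, or 7.36 ± 0.572 CPM. Collagen V usually combines 2 alpha 1 chains with 1 alpha 2 chain, and the Col5a1 level per kilobase was 1.92-fold below that of Col5a2 (log2 ratio -0.94 ± 0.05).

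Col1a1 had 88, 67 and 84 reads, or 4.24 ± 0.579 CPM, and Col1a2, its partner in collagen I, had 53, 71 and 52 reads, or 3.13 ± 0.585 CPM. Replicate 2 was the lowest library of Col1a1 and the highest of Col1a2. The per-kilobase log2 ratio of Col1a1 to Col1a2 was 1.37 ± 0.46 with all annotated exons and 0.30 ± 0.46 with the longest transcript, so with the latter it lay within its spread. Col3a1, the chain of collagen III, had 64, 81 and 55 reads, or 3.55 ± 0.722 CPM. It lies tail to tail with Col5a2 on chromosome 1, with 24614 bases between them, and its per-kilobase level was 4.65-fold below that of Col5a2 (log2 ratio -2.22 ± 0.25). The per-kilobase ratio of Col3a1 to Col1a1 was -0.85 ± 0.47 with all exons and -0.17 ± 0.47 with the longest transcript, again within the spread.

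Transcripts of both own genes of collagen XI, a cartilage collagen close to collagen V, were detected. Col11a2 had 155, 144 and 104 reads in replicates 1, 2 and 3, or 7.16 ± 1.45 CPM (SD, n = 3), with replicate 3 the lowest. Col11a1 had 147, 115 and 114 reads, or 6.67 ± 1.00 CPM, with replicate 1 the highest. Per kilobase of all annotated exons Col11a1 stood 1.97-fold below Col11a2 (log2 ratio -0.98 ± 0.23), and with the longest transcript the log2 ratio was -0.43 ± 0.23. Col2a1, the main cartilage collagen, had 57, 58 and 60 reads, and Col27a1, a fibrillar chain of developing cartilage, had 68, 75 and 90. Col24a1, the fibrillar gene that was not detected, had 5, 3 and 7 reads.

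**Figure D2:**
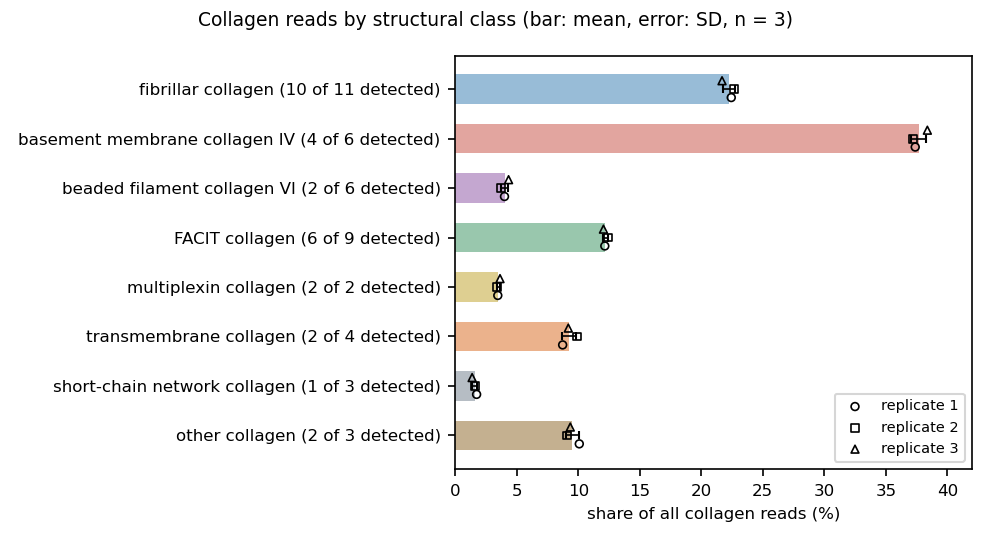
Share of all collagen reads held by each of 8 structural classes in percent, with bars for the mean, error bars for the SD over 3 libraries and points for the libraries. Collagen IV, at 37.7%, and the fibrillar class, at 22.2%, together exceed all other classes.

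Col26a1 had the most reads of any collagen gene outside the collagen IV class. It encodes a secreted protein with an EMI domain and collagen repeats, first described in testis and ovary, and lies at chr5:136741759-136883209 on the minus strand. It had 518, 447 and 467 reads in replicates 1, 2 and 3, or 25.4 ± 1.92 CPM (SD, n = 3), with replicate 1 the highest. Its place in the order depends on the length used. Its annotated exons together span 8176 bases, which gave 3.11 ± 0.235 CPM per kb and the third place among the 44 genes. Its longest annotated transcript has 2781 bases, which gave 9.14 ± 0.691 CPM per kb and the first place, above Col4a2 at 7.16 and Col4a1 at 6.70 CPM per kb on that scale. Which transcripts were present is not given by values per gene. Col7a1, the chain of anchoring fibrils below the epidermis, had 50, 49 and 45 reads, and Col28a1 was not detected, with 25 reads in all.

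Among the transmembrane collagens, which are anchored in the cell membrane and can be shed, 2 of 4 genes were detected, and the class held 9.27% ± 0.583 of collagen reads. Col23a1 had 272, 277 and 250 reads in replicates 1, 2 and 3, or 14.2 ± 0.836 CPM (SD, n = 3). Col25a1, which encodes the precursor of a collagenous component of amyloid plaques and is known from neurons, had 222, 263 and 254 reads, or 13.1 ± 1.16 CPM, with replicate 1 the lowest. Per kilobase of all annotated exons Col25a1 stood 2.44-fold below Col23a1 (log2 ratio -1.29 ± 0.16), and with the longest transcript the log2 ratio was -0.36 ± 0.16. It was below 0 in 3 of 3 libraries on both scales. Col13a1, a collagen of the neuromuscular junction, had 8 reads in all and Col17a1, the collagen of epidermal hemidesmosomes, had 15.

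The FACIT class held 12.2% ± 0.187 of collagen reads with 6 of 9 genes detected. Col16a1 led it with 248, 232 and 252 reads, or 12.99 ± 0.50 CPM (SD, n = 3). Col12a1, a fibril-associated collagen of dense connective tissue, had 148, 163 and 154 reads, or 8.25 ± 0.43 CPM. Col9a3, a chain of cartilage collagen IX, had 116, 105 and 97 reads, whereas its partner chains Col9a1 and Col9a2 had 19 and 37 reads in all and were not detected. Per kilobase Col9a2 stood 7.12-fold below Col9a3 (log2 ratio -2.83 ± 0.33). The size of this fold is uncertain, because Col9a2 had few reads and lay below 1 CPM in every library. Col9a3 shares 234 exon bases with Tcfl5 on the opposite strand, which had 820 reads, and no source used here says if reads were counted by strand, so reads of that stretch cannot be assigned to 1 of the genes. Col19a1, made by interneurons of the hippocampus and tied to inhibitory synapse formation, had 40, 52 and 43 reads, or 2.40 ± 0.343 CPM. Col22a1 had 77, 67 and 68 reads and Col20a1 had 32, 33 and 34. Col14a1 had 7, 21 and 11 reads and passed 1 CPM in replicate 2 only.

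Collagen VI forms beaded filaments from 1 chain each of alpha 1, alpha 2 and a further chain, and its genes were expressed at very unequal levels. Col6a1 had 166, 151 and 173 reads in replicates 1, 2 and 3, or 8.69 ± 0.554 CPM (SD, n = 3). Col6a2, on the same strand of chromosome 10 at a distance of 85161 bases, had 38, 27 and 30 reads, or 1.69 ± 0.301 CPM. Per kilobase Col6a1 was 9.89-fold higher with all exons (log2 ratio 3.31 ± 0.22), and the log2 ratio was 2.64 ± 0.22 with the longest transcript. Col6a3, the usual further chain, had 6, 14 and 18 reads and lay below 1 CPM in every library. Col6a4, Col6a5 and Col6a6, which encode chains that can take its place, had 18, 32 and 6 reads in all. None of the 4 genes for the further chain was detected.

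The multiplexins Col18a1 and Col15a1 encode basement membrane collagens with heparan or chondroitin sulfate chains, and collagen XVIII is the source of endostatin. Col18a1 had 130, 106 and 101 reads, or 5.98 ± 0.831 CPM (SD, n = 3), and Col15a1 had 67, 82 and 103 reads, or 4.47 ± 0.946 CPM. Col18a1 was the higher gene per kilobase in replicates 1 and 2 and the lower in replicate 3, and the log2 ratio was 0.29 ± 0.50. Of the short-chain collagens, which form hexagonal networks, Col8a1 had 86, 77 and 64 reads. Col8a2, its partner in the corneal membrane and vessel walls, had 35 reads in all, and Col10a1, the collagen of hypertrophic cartilage, had 0, 4 and 1 reads. Col10a1 was the only collagen gene without a read in some library.

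**Figure D3:**
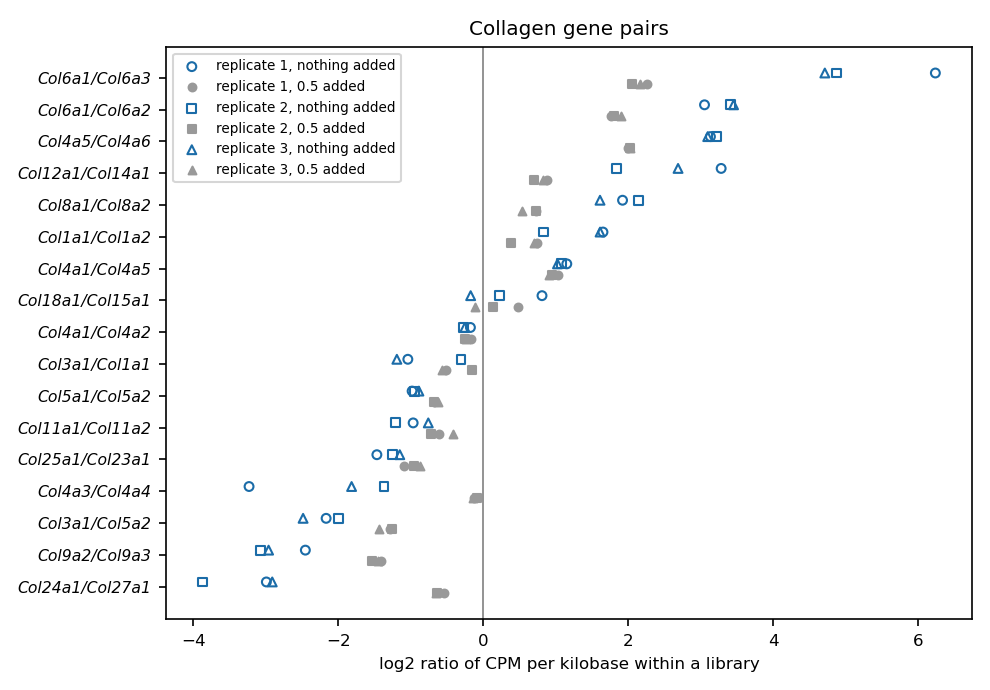
Log2 ratio of levels (CPM per kb of annotated exon) for 17 pairs of collagen genes, with 1 symbol per library, open where nothing was added and filled grey where 0.5 was added to each level. In 16 pairs the 3 libraries lie on 1 side of 0 on both scales, and Col18a1 against Col15a1 crosses it. Adding the same value to both levels cannot change the side of 0.

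The ratios in the text carry no pseudocount, while the test was run on log2 of CPM per kb plus 0.5, a scale that pulls the ratios of low genes towards 0. On it the Col4a5 to Col4a6 ratio was 2.02 ± 0.01 and the Col6a1 to Col6a2 ratio 1.82 ± 0.08. With all annotated exons as the length, 16 of 17 pairs had 1 sign in 3 of 3 libraries. For these the exact two-sided sign-flip permutation test gave p = 0.25 each, adjusted p = 0.266 over the 17 pairs. This is the smallest p that 3 libraries allow, so no pair could pass 0.05. For Col18a1 against Col15a1 the exact permutation p was 0.50. The count of 16 is tied to the length used. With the longest transcript and 0.5 added, the ratio of Col1a1 to Col1a2 was 0.17 ± 0.26. That of Col3a1 to Col1a1 was -0.10 ± 0.27, so both lay within their spread.

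Ordered by level per kilobase, the 29 detected genes formed 28 neighbouring steps, and in 7 of them the 3 libraries of the higher gene all lay above those of the lower. The first 5 steps were of this kind, from Col4a2 at 6.97 over Col4a1 at 5.94, Col26a1 at 3.11, Col4a5 at 2.80 and Col23a1 at 2.47 to Col6a1 at 1.98 CPM per kb. Col16a1 at 1.92 also stood apart from Col5a2 at 1.66 CPM per kb, and Col9a3 at 1.46 from Col11a2 at 1.04 CPM per kb. In the other 21 steps, including every step below Col11a2, the library ranges overlapped, so their order does not exceed the spread across libraries. Compared within each library, the higher gene of the step was higher in 3 of 3 libraries for 5 of these 21 steps: Col6a1 over Col16a1, Col25a1 over Col5a1, Col8a1 over Col22a1, Col20a1 over Col2a1 and Col7a1 over Col6a2. The difference of Col25a1 and Col5a1 was 0.146 ± 0.0255 CPM per kb and that of Col6a1 and Col16a1 was 0.0606 ± 0.0545 CPM per kb (SD, n = 3). In the other 16 steps the sign differed between libraries. The highest and lowest detected genes, Col4a2 and Col6a2, were 34.4-fold apart per kilobase.

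**Figure D4:**
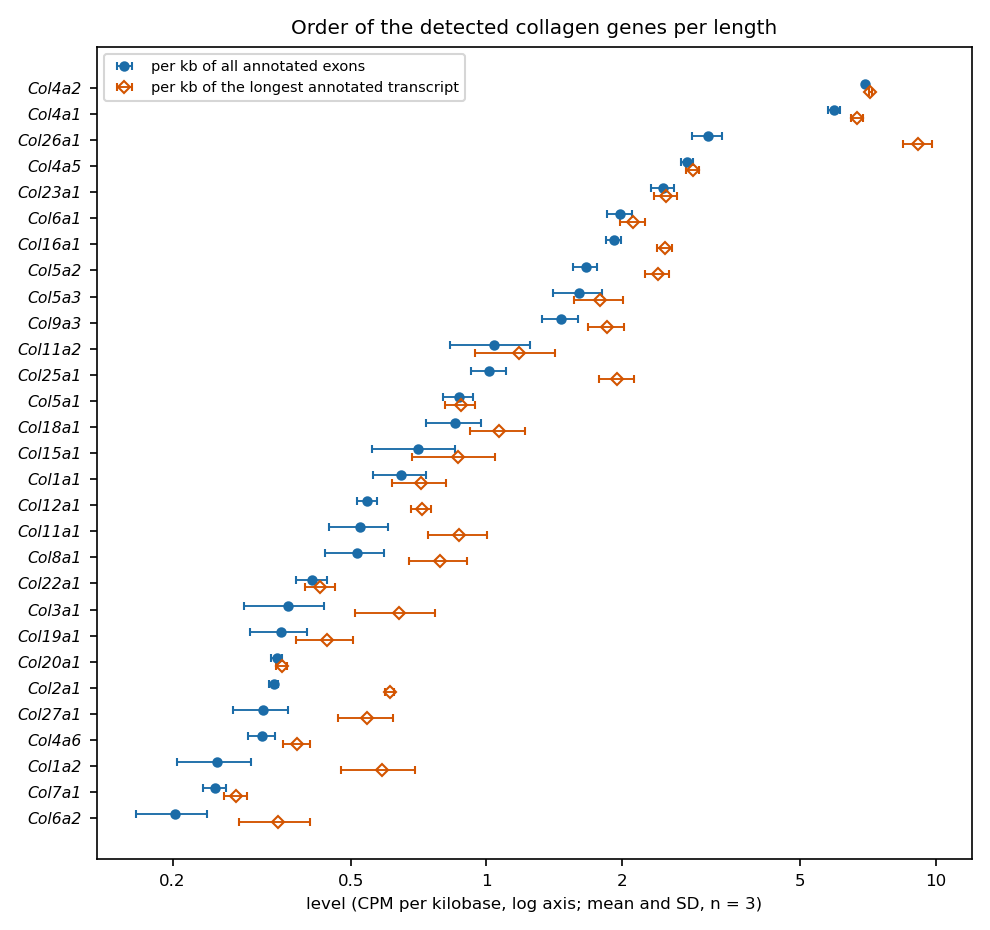
The 29 detected collagen genes in the order of their level per kilobase of all annotated exons (filled), with the level per kilobase of the longest annotated transcript beside it (open), both in CPM per kb on a log axis as mean and SD of 3 libraries. The filled points fall from Col4a2 at 6.97 to Col6a2 at 0.202 CPM per kb, and Col26a1 shifts furthest between the lengths, from 3.11 to 9.14 CPM per kb.

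No collagen gene passed a test of variation between the libraries, and the share that would pass among genes of like reads was small. Of the 44 genes, 35 had a mean of 10 reads or more and entered a Pearson chi-square test over all 15131 such genes of the table. None of the 35 differed between libraries beyond counting error after Benjamini-Hochberg adjustment at 0.05, against 8.62% of all genes tested and 2.51% of the 9847 genes in the read range of the collagen genes. At that share fewer than 1 of 35 genes would be called, so the count says nothing particular about the collagen genes. Their median range between the lowest and highest library was 1.27-fold, against 1.16-fold over the genes in that read range, which are not matched to them in reads. None differed beyond the dispersion trend over all genes, against 0.317% of genes. At an unadjusted p under 0.05 for counting error there were 3 of 35, which is 8.57%, against 20.7% of all genes and 11.7% of genes in that read range: Col11a2, Col14a1 and Col15a1, named after their values were seen. Beyond the dispersion trend there were 3 of 35 at an unadjusted p under 0.05, against 6.14% of genes. Col11a2 came closest, with an adjusted p of 0.0522 in the chi-square test and a 1.49-fold range between libraries. In simulated libraries, genes with 100 reads or more, up to about the reads of Col4a2, raised 1.5-fold in 1 library were called beyond counting error in 98% of 100 cases and beyond the dispersion trend in 87%. The cases were drawn at random over that whole range of reads. No share was taken for genes near its lower end, where Col11a2 lies. Of the 35 tested collagen genes, 19 had a mean below 100 reads and are not covered by that simulation. Over the detected collagen genes the coefficient of variation ran from 0.829% for Col4a2 to 21.2% for Col15a1, with a median of 7.78%. Replicates 1, 2 and 3 were the highest library for 16, 13 and 15 of the 44 genes, so no library was high across the family.

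The 15 genes below the threshold had 5 to 39 reads in all. They were spread over 7 of the 8 classes, and the multiplexins alone had all their genes detected.

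Most of the listed genes that make, bind and degrade collagen were detected. Of 67 genes in 5 lists, 53 were detected. The same threshold was passed by 58.3% of protein-coding rows, which is the share to set beside the count of each list. Of 15 genes for the prolyl and lysyl modification of collagen chains, 14 were detected, led by P4hb, a subunit of prolyl 4-hydroxylase, at 138 ± 5.52 CPM (SD, n = 3). Next came the collagen galactosyltransferase Colgalt1 at 76.1 ± 5.20 CPM and the prolyl isomerase Ppib at 57.5 ± 2.93 CPM. Of 10 folding and export genes 9 were detected, among them the COPII coat gene Sec23a at 231 ± 4.91 CPM, the collagen-binding matrix protein Sparc at 164 ± 5.17 CPM and Serpinh1, the collagen chaperone HSP47, at 163 ± 7.34 CPM. The row named Mia2 had no reads, while Ctage5, listed by RefSeq as another name of that gene, had 803, 832 and 859 reads in a row of its own. Per kilobase, Serpinh1 at 66.7 CPM per kb and P4hb at 48.4 CPM per kb lay above every collagen gene, of which Col4a2 was the highest at 6.97 CPM per kb.

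Of 14 genes for propeptide processing and crosslinking 10 were detected. Pxdn, which crosslinks collagen IV, had 71.0 ± 1.97 CPM, Bmp1, which removes the propeptide at the carboxyl end, had 28.3 ± 0.841 CPM, and Adamts3, which removes that at the amino end, had 19.6 ± 1.08 CPM (SD, n = 3). Pxdn reached 7.36 CPM per kb, close to Col4a2. Of 13 collagen receptors 10 were detected. Ptprs, which binds heparan sulfate chains such as those of collagen XVIII, had 366 ± 15.6 CPM. Adgrg1, a receptor of collagen III in the developing cortex, had 192 ± 9.83 CPM, and the integrin subunit Itgb1 had 127 ± 0.871 CPM. The integrin alpha subunits on the list were far lower, with Itga10 at 1.72 ± 0.306 and Itga1 at 1.63 ± 0.162 CPM. Itga2 and Itga11 were not detected, with 43 and 5 reads in all. The discoidin domain receptors, added after their values were seen, had 86.3 ± 4.58 CPM for Ddr1 and 45.2 ± 0.972 CPM for Ddr2. Gp6, the collagen receptor of platelets, had 1 read in all. Of 15 genes for collagen degradation and its inhibition 10 were detected, led by the inhibitor Timp2 at 608 ± 22.8 CPM, ahead of the membrane protease Mmp15 at 71.9 ± 1.59 CPM and the inhibitor Timp3 at 43.5 ± 0.449 CPM. The collagenase gene Mmp13 had no reads. Of the 56 genes of these lists that were tested between libraries, 6 differed beyond counting error, against 8.62% of all genes, and none beyond the dispersion trend.

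**Figure D5:**
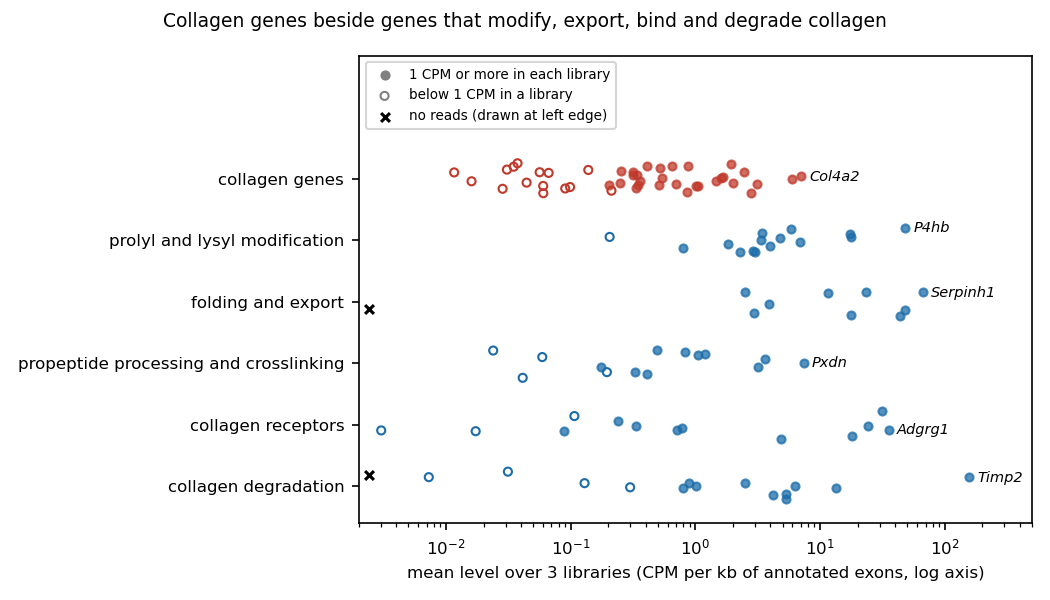
Mean level over 3 libraries in CPM per kb of annotated exon (log axis) for the collagen genes and for 5 lists of genes that act on collagen, with filled points for detected genes, open points for the rest and crosses for genes with no reads. The highest gene of each row is named, and Timp2, at 156 CPM per kb, lies furthest right, while Col4a2 leads the collagen genes at 6.97 CPM per kb.

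RefSeq promoter windows, 250 bases before to 50 after a start, were found for 35 of the 44 genes, 22 of them detected. Searched on both strands, a GC box (GGGCGG) was in the windows of 22 of the 35 genes, 17 of the 22 detected and 5 of the 13 others, against 38.2% of 27025 genes with a window. CCAAT was in those of 13 of the 35, 10 of the 22 detected and 3 of the 13 others, against 41.1% of genes. A TATA box (TATAAA) was in those of 5 genes, Col3a1, Col11a2, Col10a1, Col13a1 and Col17a1, against 15.7% of genes. The windows had a median GC content of 60.4% over detected collagen genes, 56.3% over those not detected and 52.8% over all genes. The shares and the GC content over all genes count genes whether detected or not, and none was taken over detected genes alone. These matches are descriptions of letters and were not tested.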

How the data were processed

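The authors deposited 1 log2 value per gene and library. Per the submitters' processing notes, FastQC, HISAT2, featureCounts and DESeq2 were used with GRCm38; no source used here gives their versions, roles or settings. The deposited log2 values have the form of a regularized log, which pulls low genes together (the largest SD of a collagen gene was 0.0186), so reads were recovered by inverting a negative binomial fit with a ridge penalty (6 parameters). Of 67797 values, 99.9% came within 0.1 of whole reads, against 20% by chance, as did all 132 collagen values. Simulated reads were recovered in 100% of values. Their log2 values were made with the same fitted equation, so this checks the inversion and not whether the authors' values follow that equation. Lengths are unions of GENCODE M21 exons. The chi-square test used median-of-ratios size factors. Python 3.11.15, NumPy 2.4.6 and SciPy 1.17.1 were used.

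The members and lists were chosen with earlier results of these data known. All detected members are named with values and the others with reads. Of each pathway or marker list the 3 highest by CPM are named. Some members below 1 CPM in every library are named by their reads, and some further members were added after their values were seen. Of 44 collagen genes, 13 share exon bases with another gene. Alternatives changed the read scale, threshold, length, pseudocount, scaling and libraries used.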

Additional observations from a re-analysis of the deposited data

How the results depend on the processing

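Alternatives gave 479 values. Of the 170 for pair ratios, 71 changed the size of the log2 ratio by over 1.5 times. Judged by the sign of the mean alone, all 170 kept their direction. For the 16 pairs of 1 sign in 3 libraries, leaving out a library or changing the pseudocount could not change that sign. Of the other 309, 277 stayed within the spread or the 1.5-fold limit and 32 moved. For levels and shares, leaving out 1 of 3 libraries cannot shift the mean beyond its SD, so those alternatives could not move. The deposited values are the ones from which the reads were recovered, so they are no independent check. The count of 277 therefore does not measure how stable the values are. Without mitochondrial genes in the denominator the collagen share of reads was 0.0324%. With reads per kilobase the class shares were 18.8% fibrillar, 39.5% collagen IV, 5.77% collagen VI, 13.3% FACIT, 3.82% multiplexin and 8.45% other. With total reads as the scale, or a mean of 50 reads or more, 1 collagen gene, Col11a2, differed between libraries (adjusted p = 0.0451 and 0.0434 in the chi-square test), where the value without either change was 0; over the other alternatives its adjusted p was 0.0636 to 0.842. The cause was not tested. The longest transcript as length moved 23 levels per kilobase. Length, low reads and 3 libraries of 1 group limit these values. No paired analysis was possible because there is only 1 group.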
